A study of Mus musculus with 39 samples.

Results

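Transcripts of 7 genes known from Schwann cells and satellite glia were followed through 39 microarrays of mouse lumbar dorsal root ganglia (DRG). The genes were *Sox10*, *Erbb3*, *Mbp*, *Pmp22*, *Mag*, *Fabp7* and *S100b*. Every probe set annotated to 1 of these genes and to no other gene was taken, which gave 18 of the 45101 probe sets of the array and 7 of the 18193 genes that could be named in this way. *Mbp* had 8 probe sets, *Sox10* had 3, *S100b* and *Erbb3* had 2 each, and the other genes had 1 each. Values are log2 intensities of the gene's brightest probe set over all arrays unless another probe set is named, and no gene's level is set against that of another gene.

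The newborn (p0) mice carried a BAC transgene in which GFP follows regulatory elements of TrkC, the receptor for neurotrophin 3 (NT3), and dissociated DRG cells were sorted by fluorescence into TrkC GFPon cells, mainly proprioceptors, and GFPoff cells. The methods state a further size gate for GFPon cells and name none for GFPoff cells. For 16 arrays, cells of all lumbar levels were sorted from NT3-/-Bax-/- mice, from mlcNT3 mice, from Bax-/- mice and from wild-type mice, with 2 arrays of about 350 cells for each population. The mlcNT3 mice make surplus NT3 from a myosin light chain promoter in skeletal muscle. Because *Bax* is needed for neurons to die when NT3 is missing, NT3-/-Bax-/- mice were compared with Bax-/- mice, and both lack Bax. A further 11 arrays of about 100 cells each came from wild-type L5 and L1 DRG sorted separately, with 3 arrays each for L5 GFPon, L5 GFPoff and L1 GFPoff cells and 2 for L1 GFPon cells. The other 12 arrays held RNA of whole L5 and L1 DRG of adult male mice kept for 5 weeks with or without a running wheel, 3 arrays for each level and housing. Adult titles mark L5 and L1 with different TrkC signs, but the study describes whole, unsorted DRG, and they were used as such. Newborn mice had a mixed background of 129 and C57Bl6. The labels give the same for the adults, which the methods call C57Bl6, aged 5 weeks when the wheel was introduced.

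Peripheral glia arise from the neural crest under the control of the transcription factor Sox10. Immature glia carry the receptor Erbb3, which binds neuregulin 1 displayed on axons and signals together with Erbb2, and this signal drives survival of Schwann cell precursors and, later, the amount of myelin. In the DRG, satellite glia wrap the cell bodies of neurons, and myelinating Schwann cells wrap the larger axons, proprioceptive ones among them. The compacted sheath is held together by myelin basic protein (Mbp) and peripheral myelin protein 22 (Pmp22), while myelin-associated glycoprotein (Mag) sits on the side that faces the axon. Fabp7, a fatty acid binding protein, marks satellite and immature glia. S100b, a calcium binding protein, is used as a Schwann cell marker, although antibodies to S100 proteins also label large sensory neurons.

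Promoter windows were looked up for the members, since Sox10 is itself one of them and binds short words such as ACAAAG and ACAATG. Both words were searched on both strands in the 250 bases before each annotated start, in RefSeq sequence of build GRCm38.p6, and 25.0% of 32536 windows of that length held at least 1. *Mag*, *Fabp7*, *S100b* and *Pmp22* had windows in the table used, 4 of the 7 genes. A word was found only for *Mag*, in 2 of its 3 windows, and these 2 overlap and hold the same single site. The windows printed here are those of *S100b*, which was higher in GFPon cells wherever NT3 was present, and *Mag*, the single member with a match. They lie at chr10:76253586-76253835 on the plus strand and at chr7:30914923-30915172 on the minus strand, each directly before its gene, and capitals in the second mark ACAAAG read from the opposite strand, 67 bases before the start.
S100b: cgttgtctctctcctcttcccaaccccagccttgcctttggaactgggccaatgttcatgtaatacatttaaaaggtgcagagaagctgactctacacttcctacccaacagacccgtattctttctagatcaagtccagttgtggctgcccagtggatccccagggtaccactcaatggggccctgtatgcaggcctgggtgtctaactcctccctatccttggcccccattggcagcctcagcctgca
Mag: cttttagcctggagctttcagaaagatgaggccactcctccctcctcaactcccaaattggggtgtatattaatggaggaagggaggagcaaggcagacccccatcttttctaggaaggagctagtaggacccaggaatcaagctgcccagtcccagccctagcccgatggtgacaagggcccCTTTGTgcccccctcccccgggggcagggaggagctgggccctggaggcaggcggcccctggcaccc
These letters are a description of the windows, and no binding was measured.

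In each of the 6 GFPon against GFPoff comparisons, 4 of 5 measured proprioceptor genes were higher and 4 or 5 of 5 nociceptor genes lower, in wild-type mice *Pvalb* by 7.02 and *Runx3* by 5.63 above 0 on the log2 scale. The summed proprioceptor intensity was 4645 and 6571 in NT3-/-Bax-/- GFPon cells and 1096 and 1424 in NT3-/-Bax-/- GFPoff cells, against 14737 and 15898 in Bax-/- GFPon cells and 443 and 449 in Bax-/- GFPoff cells. The summed nociceptor intensity was 16998 and 4513 in NT3-/-Bax-/- GFPoff cells, against 24695 and 24675 in Bax-/- GFPoff cells. Arrays of 1 group correlated at 0.972 to 0.998. The arrays that stood apart were those of NT3-/-Bax-/- GFPoff cells, whose summed linear intensity over 6 fibroblast genes was 28451 and 43089, against 1671 and 2982 in Bax-/- GFPoff cells. The first of these 2 arrays also stood apart in 9 macrophage genes, with a sum of 14834.5 against 502 in the second. Replicates are separate samples by their labels, and p-values measure the spread between them, which may be partly technical.

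Whether glial transcripts differ between proprioceptors and the other sorted cells was read from GFPon against GFPoff populations. *Pmp22* was lower in GFPon cells in every sorted comparison and *S100b* was higher wherever NT3 was present, while *Sox10* and *Erbb3* were lower in GFPon cells at both levels. *Mag* and *Fabp7* showed no difference that passed the test in any comparison with NT3 present. The newborn values of *Mag* lay near the array medians of 6.02 to 6.18, a low level at which a change can go unseen. In L5 DRG, limma called 3 of the 7 genes lower and 1 higher in GFPon cells, where 10% and 9.91% of all probe sets were called lower and higher. In L1 DRG, the same numbers of members were called, against 8.92% of probe sets lower and 9.03% higher. In the pooled lumbar DRG, 1 member was lower and 1 higher in wild-type mice (background 3.83% and 5.12%), and likewise in Bax-/- mice (3.77% and 4.05%), and 2 were lower and 1 higher in mlcNT3 mice (5.84% and 4.18%). In NT3-/-Bax-/- mice, 6 were lower in GFPon cells and none was higher, against 8.94% of probe sets lower and 10.4% higher. From array values alone, fewer glial cells in a sorted population and less glial RNA per cell cannot be told apart. Nor can either be told from transcripts of these genes in the sorted neurons.

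*Sox10*, the regulator of the glial lineage, had 8.90, 8.83 and 8.70 in the 3 arrays of L5 GFPon cells, against 9.20, 9.76 and 9.37 in L5 GFPoff cells. In L1 DRG it had 9.15 and 8.86 in GFPon cells, against 9.82, 9.82 and 9.86 in GFPoff cells. The arrays of the populations did not overlap at either level, and *Sox10* was lower by a log2 difference of -0.63 ± 0.15 (SE) at L5 and of -0.83 ± 0.17 at L1 (limma, adjusted p = 0.0120 and 0.00517). Without L1 GFPon replicate 2, the L1 difference was -0.69 and did not pass the test. In wild-type, Bax-/- and mlcNT3 mice the differences were -0.54, -0.50 and -0.58, with adjusted p of 0.223, 0.301 and 0.178. Glial receptor *Erbb3* had 7.32, 7.16 and 7.22 in L5 GFPon cells, against 8.25, 8.51 and 8.22 in L5 GFPoff cells, and 7.82 and 7.66 in L1 GFPon cells, against 8.60, 8.69 and 8.78 in L1 GFPoff cells. Here too all GFPon arrays lay below all GFPoff arrays, at differences of -1.10 ± 0.12 and -0.95 ± 0.14 (adjusted p = 7.26e-05 and 0.000539). In the pooled genotypes with NT3, *Erbb3* differed by -0.76 in wild-type, -0.95 in Bax-/- and -1.11 in mlcNT3 mice, and none of these passed the test (adjusted p = 0.252, 0.155 and 0.0764).

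*Nrg1*, which encodes the neuregulin that Erbb3 binds, averaged 10.73 in L5 GFPon cells and 9.26 in L5 GFPoff cells, a difference of 1.47 ± 0.18 (adjusted p = 0.000135), and it was higher by 1.64 at L1, 1.99 in wild-type and 1.33 in mlcNT3 mice. In Bax-/- mice the difference was 1.05 and did not pass the test (adjusted p = 0.0623). Of the 8 genes of a neuregulin and Erbb list, 2 were higher and 1 lower in GFPon cells at L5 and at L1. These were *Nrg1* and *Nrg3*, encoding neuregulin 3, a ligand of the related receptor Erbb4, at 1.47 and 0.85 at L5, and *Adam17*, which encodes a protease that can shed neuregulin 1, at -1.03.

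Among the myelin genes, *Pmp22* gave the clearest separation. It had 10.36, 9.80 and 10.11 in L5 GFPon cells, against 12.81, 12.55 and 12.46 in L5 GFPoff cells, and 10.12 and 9.51 in L1 GFPon cells, against 12.68, 12.68 and 12.66 in L1 GFPoff cells. In the wild-type mice, the values were 11.09 and 11.10 in GFPon cells and 12.66 and 12.49 in GFPoff cells. No GFPon array reached the level of any GFPoff array, within or across these groups. *Pmp22* was thus 5.72-fold lower at L5, 7.27-fold lower at L1 and 2.79-fold lower in the wild-type pool (log2 differences -2.52 ± 0.18, -2.86 ± 0.21 and -1.48 ± 0.28, adjusted p = 3.75e-06, 3.74e-06 and 0.00484). The wild-type difference was -1.39 without wild-type GFPoff replicate 1 and then did not pass the test. In Bax-/- and mlcNT3 mice *Pmp22* was lower by log2 differences of -1.87 and -2.16. Over the newborn arrays its values ran most closely with *Prrxl1* of small sensory neurons (r = 0.98) and *Dhh* of Schwann cells (0.96). Which of the sorted cells carried *Pmp22* was not tested.

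*Mbp* was less separated. It had 9.93, 9.98 and 9.38 in L5 GFPon cells, against 10.24, 11.32 and 10.28 in L5 GFPoff cells, without overlap, and the difference of -0.85 ± 0.29 missed the threshold (adjusted p = 0.0625). The differences were -0.68 at L1, -0.77 in wild-type mice and -0.19 in Bax-/- mice. *Mbp* passed the test in mlcNT3 mice at -1.62 ± 0.37 (adjusted p = 0.0148), where GFPon arrays had 8.93 and 9.72 and GFPoff arrays 11.28 and 10.59. Leaving out replicate 1 of either mlcNT3 population brought this to -1.22 or -1.27, which did not pass. *Mag* lay between 5.71 and 6.74 in all newborn arrays but 1, an NT3-/-Bax-/- GFPoff array at 7.14, and its GFPon minus GFPoff differences lay between -0.18 and 0.08 in the populations with NT3. A list of 14 other genes of myelin and myelinating Schwann cells showed no common direction at L5, with 3 higher and 1 lower in GFPon cells. *Drp2* of the periaxin complex (0.82) and *Fa2h*, a myelin lipid hydroxylase (0.76), were higher, and *Mal*, a raft protein of myelin, was lower (-1.55). *Sirt2*, a deacetylase, was higher by 0.34.

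*Fabp7*, the satellite glia gene, was called in none of the comparisons with NT3 present. It had 11.51 and 11.07 in wild-type GFPon cells, against 10.92 and 11.19 in wild-type GFPoff cells, and 11.44, 11.17 and 11.21 in L5 GFPon cells, against 11.21, 11.73 and 11.96 in L5 GFPoff cells. The arrays overlapped in both, and the differences of 0.23 ± 0.52 and -0.36 ± 0.23 did not pass the test (adjusted p = 0.859 and 0.318). Nor did those of -0.69 ± 0.52 in mlcNT3 mice, -0.05 ± 0.52 in Bax-/- mice and -0.40 ± 0.25 at L1 (adjusted p = 0.538, 0.985 and 0.353). Of 15 other genes of Schwann precursors and satellite glia, 7 were lower and 1 was higher in L5 GFPon cells, and 6 were lower and 1 was higher in L1 GFPon cells. The largest differences at L5 among those that passed were in *Gja1*, the gap junction protein connexin 43 of satellite glia (-1.83), *Sparc*, a matrix protein (-1.59), *Ednrb*, an endothelin receptor (-1.25), and *Tfap2a*, a neural crest transcription factor (-1.10). The median over this list was -0.98 at L5, against 0.04 over all probe sets. Markers of other cells moved with it. All 8 endothelial genes, 3 of 6 fibroblast genes, 3 of 9 macrophage genes and 3 of 7 cell division genes were lower in L5 GFPon cells, and their part in the glial differences was not tested.

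*S100b* was the only member called higher in GFPon cells, in the 5 comparisons with NT3 present. It had 11.05 and 10.90 in wild-type GFPon cells, against 8.83 and 8.77 in wild-type GFPoff cells, and 11.62, 11.41 and 11.65 in L5 GFPon cells, against 10.14, 9.42 and 9.80 in L5 GFPoff cells. At L1 the values were 10.61 and 10.43 in GFPon cells and 8.89, 9.61 and 9.04 in GFPoff cells. All GFPon arrays of these 3 groups lay above all GFPoff arrays, the opposite direction to *Pmp22*, *Sox10* and *Erbb3*. Which of the sorted cells carried *S100b* was not tested. *S100b* was 4.50-fold higher in wild-type GFPon cells, 3.42-fold at L5 and 2.53-fold at L1 (log2 differences 2.17 ± 0.26, 1.77 ± 0.21 and 1.34 ± 0.24, adjusted p = 0.000200, 0.000136 and 0.00231). It was also higher by 1.69 in Bax-/- and by 1.49 in mlcNT3 mice. Its second probe set was higher as well, by 0.86 at L1 to 1.88 in Bax-/- mice.

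**Figure D1:**
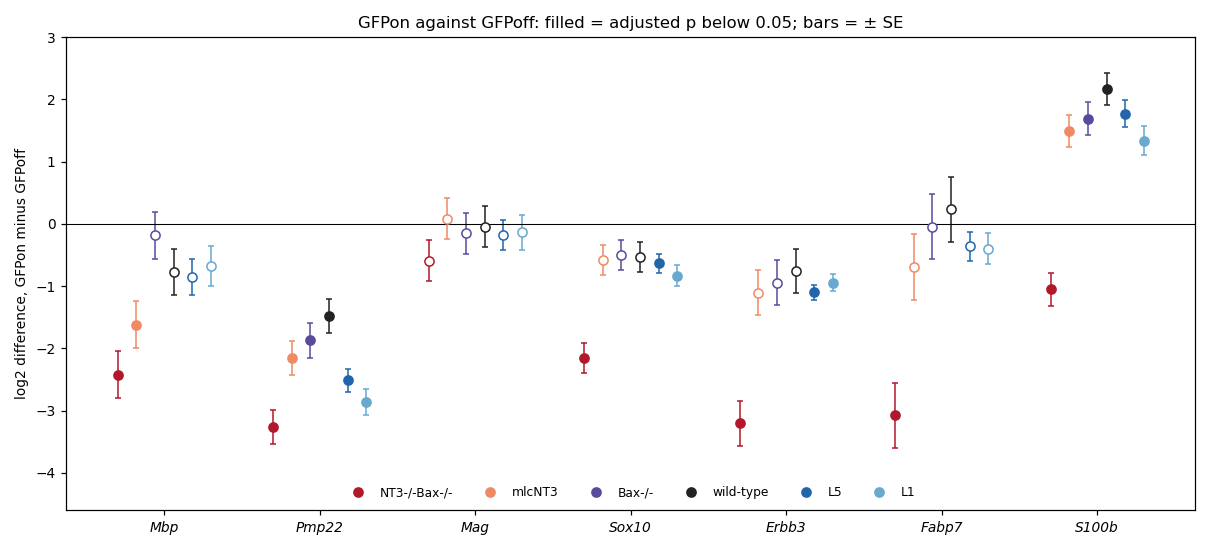
Log2 difference between GFPon and GFPoff cells (vertical axis) for the 7 genes in 4 genotypes of pooled lumbar DRG and in wild-type L5 and L1 DRG, with limma's SE as bars and filled points where the adjusted p was below 0.05. *S100b* lies above 0 in all populations with NT3 and at -1.05 in NT3-/-Bax-/- mice, *Pmp22* lies between -1.48 and -3.26, and *Mag* has no filled point.

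What the loss of NT3 does to these transcripts was read from NT3-/-Bax-/- against Bax-/- mice within each sorted population. In GFPon cells 4 of the 7 genes were lower and none was higher, where 9.17% of probe sets were called lower. In GFPoff cells 3 were higher and 1 was lower, where 9.91% of probe sets were called higher and 11.8% lower. *S100b* was lower in both populations, and *Sox10* was lower in GFPon and higher in GFPoff cells, while each of the other called members was called in only 1 of the populations.

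*S100b* had 6.43 and 6.37 in NT3-/-Bax-/- GFPon cells, against 10.91 and 10.78 in Bax-/- GFPon cells. In GFPoff cells it had 7.48 and 7.42 in NT3-/-Bax-/- mice, against 9.67 and 8.63 in Bax-/- mice. The NT3-/-Bax-/- GFPon arrays were the lowest of all 39 arrays for this gene, and the NT3-/-Bax-/- GFPoff arrays came next. *S100b* was 21.8-fold lower in GFPon cells without NT3 (log2 difference -4.45 ± 0.26, adjusted p = 1.47e-06) and 3.26-fold lower in GFPoff cells (-1.70 ± 0.26, adjusted p = 0.000794). With this, the direction between populations turned, and NT3-/-Bax-/- GFPon cells lay below NT3-/-Bax-/- GFPoff cells by -1.05 ± 0.26 (adjusted p = 0.0137). That last difference was -1.02 without GFPon replicate 2 and -1.02 without GFPoff replicate 1, and passed the test in neither case. The NT3-/-Bax-/- GFPon values lay near the array medians of 6.02 to 6.18. Both the 21.8-fold difference and the turn between populations are therefore uncertain in size. The second probe set of *S100b* differed by -3.96 in GFPon cells (adjusted p = 2.15e-05) and by -0.92 in GFPoff cells, where it did not pass (adjusted p = 0.0834). *Nrg1* was also lower without NT3, by -2.48 ± 0.31 in GFPon cells and by -2.96 in GFPoff cells (adjusted p = 0.000220 and 8.35e-05), and so was *Nrg3*, by -1.08 and -1.22. The proprioceptor genes *Pvalb* (-4.62) and *Runx3* and the neurofilament gene *Nefh* of large neurons (-4.29) were lower in the same GFPon arrays. The other measured proprioceptor genes changed less. *Ntrk3* averaged 11.01 in NT3-/-Bax-/- GFPon cells, against 10.86 in Bax-/- GFPon cells, and so lay slightly higher. *Esrrg* averaged 11.06 against 11.52, and *Whrn* 7.21 against 7.35.

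*Pmp22* had 9.46 and 8.69 in NT3-/-Bax-/- GFPon cells, against 10.16 and 10.50 in Bax-/- GFPon cells, a difference of -1.26 ± 0.28 (adjusted p = 0.00797) that was -0.87 and no longer passed without NT3-/-Bax-/- GFPon replicate 2. In GFPoff cells it had 12.60 and 12.07 in NT3-/-Bax-/- mice, against 12.53 and 11.86 in Bax-/- mice, and the groups overlapped. *Sox10* had 7.48 and 7.40 in NT3-/-Bax-/- GFPon cells, against 8.10 and 8.32 in Bax-/- GFPon cells, a difference of -0.77 ± 0.24 (adjusted p = 0.0450) that did not pass with any of the 4 arrays left out, at -0.66 to -0.88. *Fabp7* had 10.96 and 9.33 in NT3-/-Bax-/- GFPon cells, against 11.51 and 12.38 in Bax-/- GFPon cells. Its difference of -1.80 ± 0.52 (adjusted p = 0.0320) was -0.98 without NT3-/-Bax-/- GFPon replicate 2 and -1.37 without Bax-/- GFPon replicate 2, and passed in neither case. *Mbp* (-0.21), *Erbb3* (-0.63) and *Mag* (0.02) did not pass the test in GFPon cells. When both NT3-/-Bax-/- GFPoff arrays were left out of the fit, 4 members were again called lower in GFPon cells. This setting changes only the estimate of spread and cannot change these differences.

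In GFPoff cells, *Mbp*, *Erbb3* and *Sox10* were higher without NT3, while the myelin genes *Pmp22* and *Mag* were not called. *Mbp* had 13.00 and 12.90 in NT3-/-Bax-/- GFPoff cells, against 10.51 and 11.34 in Bax-/- GFPoff cells, and the NT3-/-Bax-/- arrays were the highest of all 39 for this probe set. *Erbb3* had 10.23 and 11.14 in NT3-/-Bax-/- GFPoff cells, against 8.80 and 9.32 in Bax-/- GFPoff cells. *Sox10* had 9.44 and 9.77 in NT3-/-Bax-/- GFPoff cells, against 8.52 and 8.90 in Bax-/- GFPoff cells. The differences were 2.03 ± 0.37 for *Mbp*, 1.63 ± 0.36 for *Erbb3* and 0.89 ± 0.24 for *Sox10* (adjusted p = 0.00233, 0.00666 and 0.0198). Leaving out Bax-/- GFPoff replicate 1 or NT3-/-Bax-/- GFPoff replicate 2 brought *Erbb3* to 1.37 or 1.17 and *Sox10* to 0.70 or 0.73, and none of these passed. *Fabp7* had 13.39 and 13.05 in NT3-/-Bax-/- GFPoff cells, against 11.84 and 12.14 in Bax-/- GFPoff cells, which did not overlap, but its difference of 1.23 ± 0.52 did not pass (adjusted p = 0.120). *Mag* had 7.14 and 5.72 in NT3-/-Bax-/- GFPoff cells, against 5.87 and 6.07 in Bax-/- GFPoff cells, and the higher value belonged to the array with the high macrophage genes.

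Other glial genes rose in the same arrays. Of 15 genes of Schwann precursors and satellite glia, 10 were higher in NT3-/-Bax-/- GFPoff cells and none was lower, with a median of 1.24 against 0.01 over all probe sets. The largest changes were in *Gja1* (2.53), *Ednrb* (2.21), *Sparc* (2.17) and *Cdh19*, a cadherin of Schwann cell precursors (2.07). Of 14 myelin genes, 5 were higher and 1 was lower. The claudin gene *Cldn11* (4.54), the myelin regulator *Egr2* (1.84), *Mal* (1.72) and *Ugt8a*, which makes galactolipids of myelin (1.67), led the rise. The gene that fell was *Drp2* at -1.41, named after its value was seen. Markers of other cell types moved with them. All 6 fibroblast genes (*Col3a1* by 6.06 and *Col1a1* by 5.96), all 8 endothelial genes (*Tek* by 3.94) and all 7 cell division genes (*Mki67* by 3.66) were higher, and 5 of 12 neuronal genes were lower. The summed intensity of the endothelial list was 2413 and 2419 in NT3-/-Bax-/- GFPoff cells, against 363 to 504 in Bax-/- GFPoff cells, and that of the cell division list was 6930 to 9237, against 670 to 965. None of the 9 macrophage genes passed limma's test, although all 9 were above 0 and 1 had an unadjusted p under 0.05 (*Cd68*, named after its value was seen). The part of these other cells in the glial differences was not tested.

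**Figure D2:**
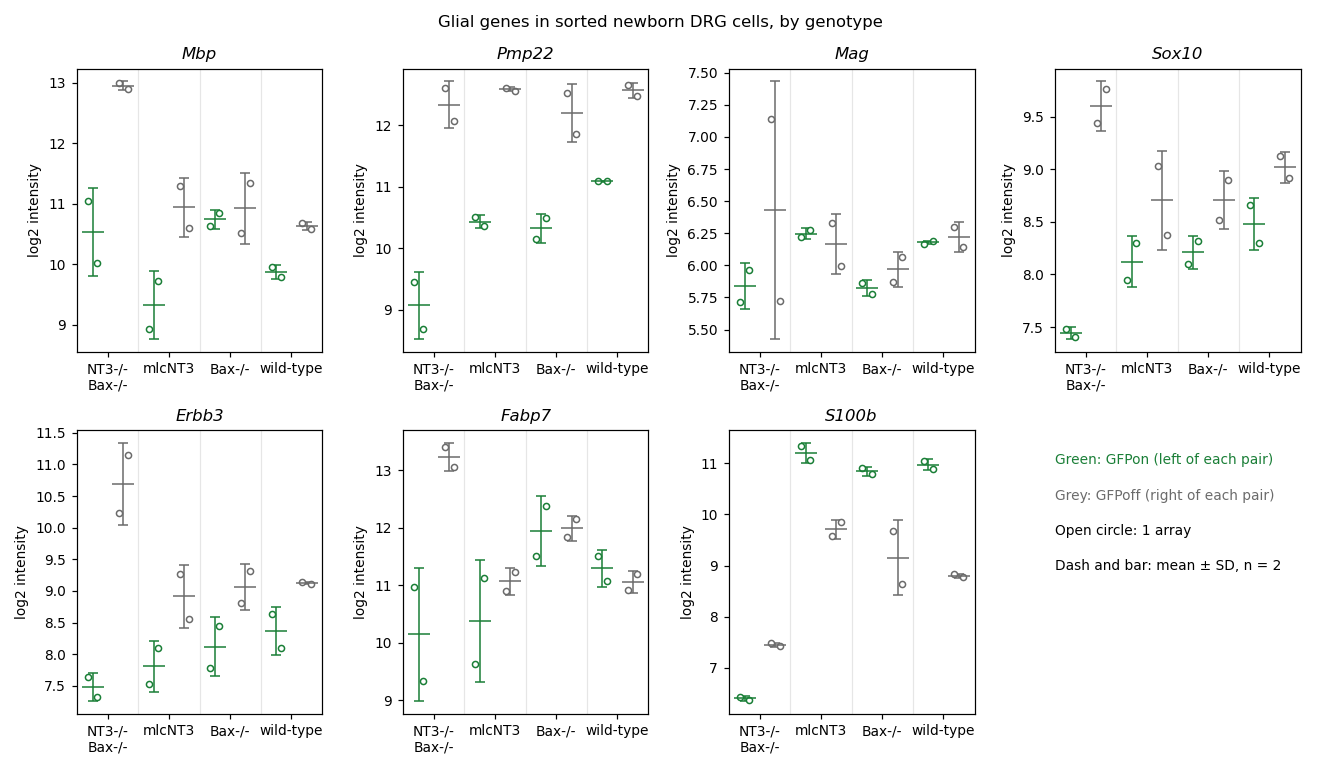
Log2 intensity of the 7 genes (vertical axes) in GFPon cells (green, left of each pair) and GFPoff cells (grey, right) of 4 genotypes, with 1 circle for each array and a dash and bar for the mean and SD of 2 arrays. In NT3-/-Bax-/- mice *S100b* is lowest in both populations, while *Mbp*, *Erbb3*, *Sox10* and *Fabp7* are highest in GFPoff cells.

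Within NT3-/-Bax-/- mice, the differences between GFPon and GFPoff cells were -3.26 for *Pmp22*, -3.20 for *Erbb3*, -3.07 for *Fabp7*, -2.42 for *Mbp* and -2.16 for *Sox10*, all past the threshold, and -0.59 for *Mag*, which was not. The difference between the populations in the effect of NT3 loss was tested itself. It was called lower in GFPon than in GFPoff cells for 6 of the 7 genes, where 5.13% of probe sets were called in that direction. The interaction was -3.03 ± 0.74 for *Fabp7*, -2.74 ± 0.37 for *S100b*, -2.26 ± 0.51 for *Erbb3*, -2.24 ± 0.52 for *Mbp*, -1.66 ± 0.34 for *Sox10* and -1.39 ± 0.39 for *Pmp22*. Adjusted p-values from limma lay between 0.000749 for *S100b* and 0.0439 for *Pmp22*. *Mag*, at -0.44, was not called (adjusted p = 0.654), at newborn values near the array medians.

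**Figure D3:**
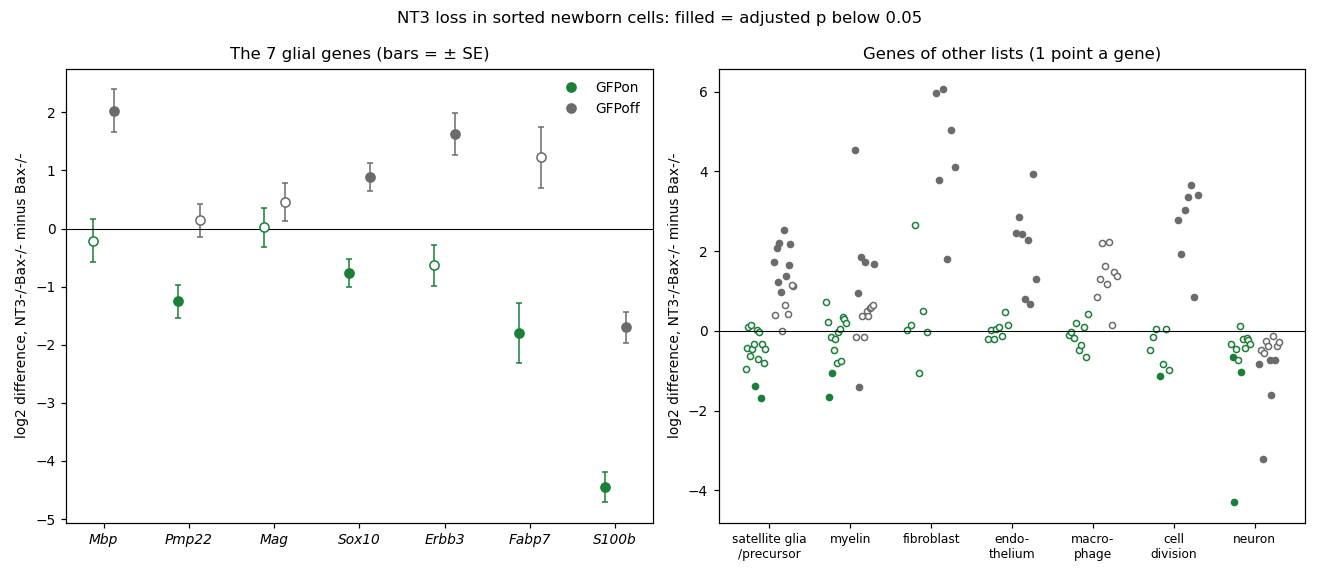
Log2 difference between NT3-/-Bax-/- and Bax-/- mice in GFPon cells (green) and GFPoff cells (grey), for the 7 glial genes with SE bars (left) and for single genes of 7 other lists (right), with filled points where the adjusted p was below 0.05. In GFPoff cells all fibroblast, endothelial and cell division genes are filled and above 0, beside *Mbp*, *Erbb3* and *Sox10*, while *S100b* lies below 0 in both populations.

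With surplus NT3 or the loss of Bax alone, at most 0.5% of all probe sets were called, and no member was among them. In mlcNT3 against wild-type mice, limma called 0 of 7 genes in GFPon cells (background 0.209% called) and 0 of 7 in GFPoff cells (0.00444%), with 1 gene at an unadjusted p under 0.05 in each. The methods' t-test at the study's limits called 1 in GFPon cells and 0 in GFPoff cells, and after adjustment it called 0 of all probe sets, so that it could name no member. In GFPoff cells that gene was *S100b*, with 9.57 and 9.84 in mlcNT3 mice, against 8.83 and 8.77 in wild-type mice, a difference of 0.91 ± 0.26 without overlap (adjusted p = 0.583). In GFPon cells it was *Pmp22*, with 10.51 and 10.36 in mlcNT3 mice, against 11.09 and 11.10 in wild-type mice (-0.66 ± 0.28, adjusted p = 0.770). In Bax-/- against wild-type mice, 0 of 7 genes were called in GFPon cells (background 0.5%) and in GFPoff cells (0.178%), with 2 and 0 genes at an unadjusted p under 0.05, and 0 in each by the methods' t-test at the study's limits. The 2 genes were *Mbp* at 0.87 ± 0.37 and *Pmp22* at -0.77 ± 0.28. For the difference of either effect between the populations, limma called 0 of 7 genes with surplus NT3 (background 0.0422%) and 0 of 7 with the loss of Bax (0%), with 0 at an unadjusted p under 0.05 in each.

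Newborn L5 and L1 DRG supply different muscles, and the levels were compared within each sorted population. In L5 against L1, 0 of 7 members were called in GFPon cells (background 0.397%) and 0 of 7 in GFPoff cells (0.16%), with 2 and 3 at an unadjusted p under 0.05, and 1 and 0 by the methods' t-test at the study's limits. In GFPon cells *S100b* was above at L5, with the arrays given above lying apart, by 1.04 ± 0.24 (unadjusted p = 0.00115, adjusted p = 0.122). *Erbb3* lay below at L5 by -0.51 ± 0.14 (adjusted p = 0.192), also without overlap. In GFPoff cells, unadjusted p-values under 0.05 were found for *S100b* (0.61), *Erbb3* (-0.36) and *Sox10* (-0.39). For the interaction of level and population, limma called 0 of 7 genes (background 0.0666%), with 0 at an unadjusted p under 0.05.

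**Figure D4:**
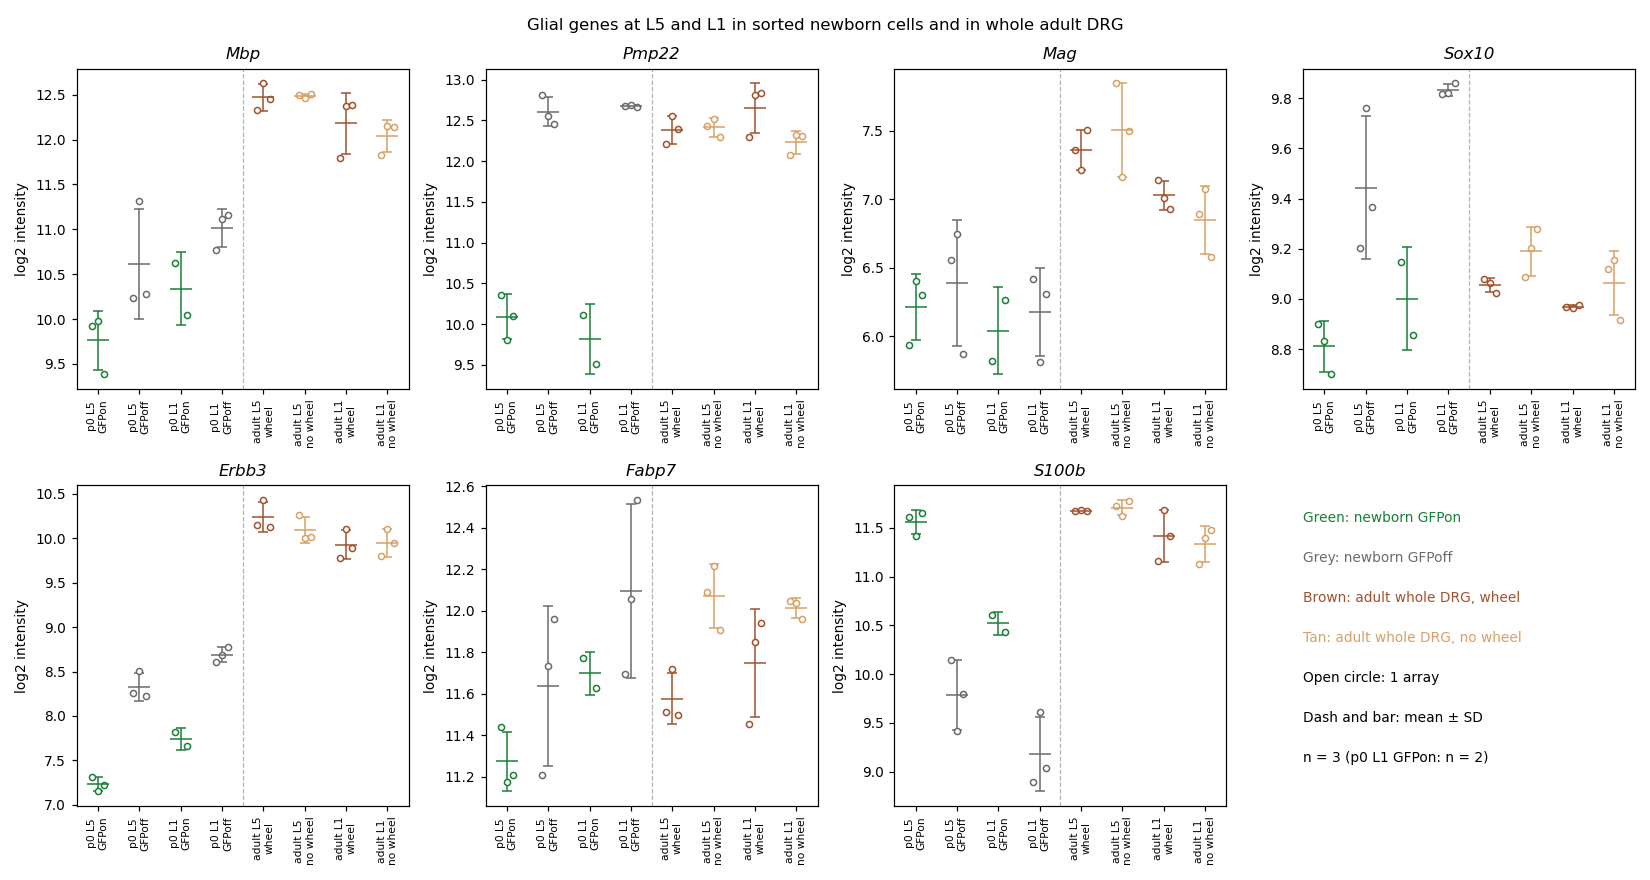
Log2 intensity of the 7 genes (vertical axes) in sorted newborn cells of L5 and L1 DRG (left of the dashed line) and in whole adult DRG by level and wheel (right), with 1 circle for each array and a dash and bar for the mean and SD. *Erbb3* and *Pmp22* are low in newborn GFPon cells, *S100b* is high in them, and adult *Mag* is higher at L5 than at L1.

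In whole adult DRG, L5 was compared with L1 with and without a running wheel. *Mag* had 7.85, 7.16 and 7.50 at L5 without a wheel, against 6.89, 7.08 and 6.58 at L1 without a wheel. With a wheel it had 7.36, 7.22 and 7.50 at L5, against 7.14, 7.01 and 6.93 at L1. All L5 arrays lay above all L1 arrays, and *Mag* was higher by 0.65 ± 0.15 without a wheel (adjusted p = 0.0256). With a wheel the difference of 0.33 ± 0.15 did not pass (adjusted p = 0.253). *Mag* was the only member called without a wheel, 1 of 7 where 1.92% of probe sets were higher, and 0 of 7 were called with one, where 5.43% of probe sets were called in either direction. With a wheel, 2 genes had an unadjusted p under 0.05, and the methods' t-test called none after adjustment. The call for *Mag* was lost with 4 of the 6 arrays of its comparison left out in turn, at 0.52 without L1 replicate 3, 0.67 without L1 replicate 1, 0.48 without L5 replicate 1 and 0.66 without L5 replicate 3.

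Without a wheel all 7 differences between L5 and L1 were above 0, and those of the other 6 members did not pass the test. With a wheel 5 were above 0, and *Pmp22* (-0.27 ± 0.14) and *Fabp7* (-0.17 ± 0.12) were below, none of them called. *Mbp* had 12.50, 12.46 and 12.50 at L5, against 11.83, 12.15 and 12.14 at L1, a difference of 0.45 ± 0.14 without overlap (adjusted p = 0.0891). *S100b* had 11.72, 11.62 and 11.77 at L5, against 11.13, 11.40 and 11.47 at L1, a difference of 0.37 ± 0.12, also without overlap (adjusted p = 0.0960). *Erbb3* had 10.15, 10.43 and 10.13 at L5 with a wheel, against 9.78, 10.10 and 9.90 at L1 with a wheel (0.31 ± 0.12, adjusted p = 0.156). Further genes of myelin and myelinating Schwann cells were called. In L5 against L1, 8 of 14 were higher with a wheel and 7 of 14 without, and none was lower. The medians were 0.50 and 0.41, against -0.01 over all probe sets in both. Without a wheel *Cldn11* (1.35), *Ugt8a* (0.92), *Drp2* (0.70) and *Fa2h* (0.68) were highest above 0, and with a wheel *Cldn11* (1.21), *Ugt8a* (1.17), *Drp2* (0.62) and *Egr2* (0.60). The list of Schwann precursors and satellite glia had 0 of 15 called by limma with a wheel (4 at an unadjusted p under 0.05) and 1 without, *Sparc*. Proprioceptor markers were higher at L5 as well, 4 of 5 with a wheel and 3 of 5 without, and *Nrg1* was higher by 0.50 with a wheel (adjusted p = 0.0249). Of macrophage genes, 1 of 9 was higher with a wheel and 2 of 9 without. The part of these cells in the myelin differences was not tested.

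With running, at most 0.48% of all probe sets were called, and no member was among them. For wheel against no wheel, limma called 0 of 7 genes at L5 (background 0.48%) and 0 of 7 at L1 (0.242%), with 1 and 2 genes at an unadjusted p under 0.05, and 0 in each by the methods' t-test at the study's limits. *Fabp7* came closest, with 11.51, 11.72 and 11.50 at L5 with a wheel, against 12.09, 12.21 and 11.91 at L5 without. The groups did not overlap, and the difference was -0.49 ± 0.12 (unadjusted p = 0.000991, adjusted p = 0.0728). At L1 *Fabp7* had 11.45, 11.85 and 11.94 with a wheel, against 12.05, 12.04 and 11.96 without (-0.27 ± 0.12, adjusted p = 0.410). *Pmp22* at L1 had 12.30, 12.81 and 12.84 with a wheel, against 12.07, 12.32 and 12.30 without (0.42 ± 0.14, adjusted p = 0.248), and the groups overlapped. For the interaction of running and level, limma called 0 of 7 genes (background 0%), with 1 at an unadjusted p under 0.05. The count for running at L5 depended on the processing. Quantile normalization of all arrays called 1 member there, as did leaving out dim probe sets.

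All newborn sorted arrays were pooled for this step, GFPon with GFPoff cells and mutant with wild-type mice. Against this pool, whole adult DRG had higher means for all 7 genes, by 0.22 (log2) for *Sox10* to 1.84 for *S100b*. Single newborn groups could lie above the adult mean. *Sox10* averaged 9.83 in L1 GFPoff and 9.44 in L5 GFPoff cells, against 9.07 in adults. *Pmp22* averaged 12.67 and 12.61 there, against 12.42. Both genes lay below the adult mean in L1 and L5 GFPon cells. The *S100b* pool held the low NT3-/-Bax-/- groups, at 6.40 in GFPon and 7.45 in GFPoff cells. No gene had all adult arrays above all newborn arrays in the deposited values, where 2.53% of probe sets did. Whole DRG and sorted cells differ in age, in preparation and in the cells they hold, which cannot be told apart, and the upper quartile of adult arrays (8.17 to 8.32) lay below that of newborn arrays (8.38 to 8.63). After quantile normalization of all arrays, *Pmp22* and *S100b* lay above in all adult arrays, where 4.73% of probe sets did. Over the 16 groups, *S100b* was highest in adult L5 DRG, at 11.71 ± 0.08 without a wheel and 11.67 ± 0.00456 with one (SD, n = 3 each), which overlapped, and newborn L5 GFPon cells came next at 11.56 ± 0.13 (SD, n = 3). *Mbp* was highest in NT3-/-Bax-/- GFPoff cells at 12.95 ± 0.07 (SD, n = 2), apart from adult L5 DRG without a wheel at 12.49 ± 0.02 (SD, n = 3). *Pmp22* was highest in L1 GFPoff cells at 12.67 ± 0.01 (SD, n = 3), which overlapped with adult L1 DRG with a wheel at 12.65 ± 0.30 (SD, n = 3).

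The members did not vary as 1 group. Over the 27 newborn arrays, Pearson's r between *Mbp* and *Erbb3* was 0.83 and between *Mbp* and *Fabp7* 0.73, while *S100b* correlated with *Mbp* at -0.64 and with *Erbb3* at -0.48. *Pmp22* correlated at 0.70 with *Sox10* and 0.69 with *Erbb3*. Over the 12 adult arrays, *S100b* and *Mbp* correlated at 0.92. These values describe arrays that share genotypes, sorts and levels, and they carry no test. The genes most like *S100b* over the newborn arrays were *Scn4b* (0.97), which encodes a sodium channel subunit, *Cpne6* (0.97), a copine, and *Stx11* (0.96), a syntaxin. Those most like *Pmp22* were *Prrxl1* (0.98), a transcription factor of small sensory neurons, *Dhh* (0.96), a hedgehog ligand made by Schwann cells, and *Cd9* (0.95), a tetraspanin. For *Mbp* they were *Plaat3*, *Entpd2*, an ectonucleotidase of glia, and *Cald1* (0.95 each), and for *Erbb3* the laminin gene *Lama4* (0.94), *Plce1* (0.94) and *Afap1l2* (0.93). For *Sox10* they were *Zfyve21*, *Lamc1* and *Cyp39a1* (0.88 to 0.89), for *Fabp7* *Fmo1*, *Mfsd2a* and *Adgrg6*, the Schwann cell adhesion receptor, (0.91 to 0.92), and for *Mag* *Polr3d*, *Fcer1g* and *Cxcl16* (0.66 to 0.70). Over the adult arrays, *Chrna7* (0.95) and *Kcna1* (0.93), an axonal potassium channel gene, were most like *S100b*.

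The probe sets of a gene did not always run together. Of the 8 *Mbp* probe sets, 4 correlated with the brightest at 0.97 over the newborn arrays, 1451961_a_at at 0.47, 1425264_s_at at 0.29 and 1425263_a_at at 0.12. Probe set 1425264_s_at had 11.48 and 11.70 in NT3-/-Bax-/- GFPon cells, against 10.71 and 10.52 in Bax-/- GFPon cells, and these were its highest values of all arrays. It was higher by 0.97 (adjusted p = 0.00189), where the brightest probe set differed by -0.21. Within NT3-/-Bax-/- mice, GFPon cells were higher than GFPoff cells by 0.82 for 1425264_s_at and by 1.48 for 1425263_a_at, and lower by -2.42 for the brightest. In adult L5 against L1 DRG with a wheel, 1425264_s_at was lower by -0.49 and 1451961_a_at higher by 1.21 (adjusted p = 0.00890 and 4.95e-05). The files do not say which *Mbp* transcripts these probe sets match. The other probe sets of *Sox10* correlated at 0.62 and 0.48 with the main one, and the dimmer one of *Erbb3* at -0.19. Both of *S100b* correlated at 0.97.

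**Figure D5:**
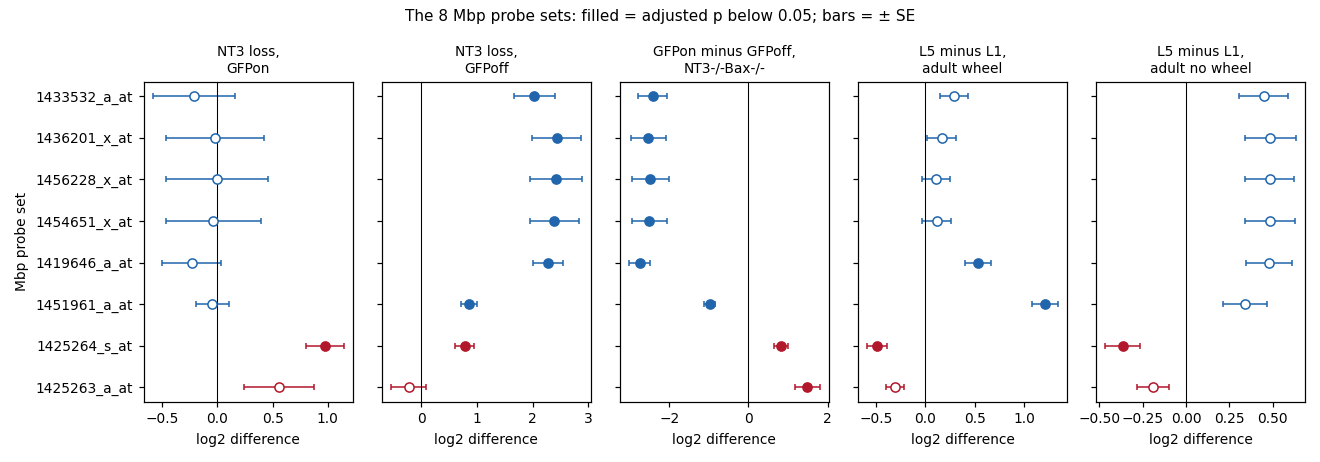
Log2 difference (horizontal axes) of each of the 8 *Mbp* probe sets, 1 row each, in 5 comparisons, with SE bars and filled points where the adjusted p was below 0.05. The 2 probe sets drawn in red, 1425264_s_at and 1425263_a_at, lie on the other side of 0 from the brightest one within NT3-/-Bax-/- mice and in adult L5 against L1 DRG.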

How the data were processed

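RNA of sorted p0 DRG cells or of whole adult DRG was amplified by in vitro transcription and hybridised to Affymetrix whole-genome mouse arrays. The authors made the deposited intensity values with RMA (affy in R 2.9), which corrects background, quantile-normalizes and summarises probes, and deposited them on a linear scale, where they spanned 5.26 to 22948. Whether the newborn and adult arrays passed through RMA jointly is not given in the sources used here. The files give no read depth, and the number of arrays limits the precision.

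Values were taken to log2 with no pseudocount or filter, after leaving out 64 control probe sets. Probe sets were named from the platform annotation, in which 34958 named 1 gene, 932 several and 9211 none, and those with several were not used for a gene. Groups came from the sample labels. 3 models were fitted with limma 3.58.1 in R 4.3.3 (lmFit, eBayes), to the 16 arrays of genotypes, the 11 newborn arrays of levels and the 12 adult arrays, and p-values were adjusted by Benjamini-Hochberg over 45037 probe sets, with calls under 0.05. ± is the SE of a difference or the SD of a mean, as named. A background percentage is the share of all probe sets called in the direction named, or in either direction where none is named. The members were always named, with up to 4 called genes of the largest difference from each other list and the 3 genes most like each member among those with a mean log2 of at least 7. The members and lists were chosen with earlier results of these data known. Fits were tested on simulated data. Alternatives were centring or quantile normalization, a pseudocount of 32, dim probe sets left out, the mean over probe sets, other choices of arrays in a fit, a replicate block, each array left out in turn, and the methods' t-test with the study's limits (p 0.02 and a 2-fold change for sorted populations and NT3 loss, 1.5-fold for others). For NT3 loss, surplus NT3 and adult levels the study itself reported ANOVA at p 0.02, which was not repeated here.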

Additional observations from a re-analysis of the deposited data

Results flagged for a closer look

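For 6 of the 7 genes, the effect of NT3 loss (NT3-/-Bax-/- minus Bax-/-) differed between GFPon and GFPoff cells by limma's test of the difference itself, with 2 arrays in each of the 4 groups. The difference of differences was -3.03 for *Fabp7* (adjusted p = 0.0229), -2.74 for *S100b* (0.000749), -2.26 for *Erbb3* (0.0144), -2.24 for *Mbp* (0.0187), -1.66 for *Sox10* (0.00918) and -1.39 for *Pmp22* (0.0439). *S100b* fell in both populations, by 4.45 in GFPon and by 1.70 in GFPoff cells. For *Mbp*, *Erbb3* and *Sox10* the GFPoff cells rose, by 2.03, 1.63 and 0.89. With single arrays left out, the difference of differences of *S100b* and *Sox10* passed the test each time. That of *Mbp* did not pass without Bax-/- GFPoff replicate 1 (-1.82) or NT3-/-Bax-/- GFPon replicate 2 (-1.72), and that of *Erbb3* without Bax-/- GFPoff replicate 1 (-2.00). *Pmp22* and *Fabp7* failed in 4 settings each, at -1.01 to -1.22 and at -2.21 to -2.87. The fibroblast, endothelial and cell division genes were higher in the same NT3-/-Bax-/- GFPoff arrays, and their part in these differences was not tested. Groups held 2 or 3 arrays, too few to test a single array as an outlier.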

How the results depend on the processing

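Counts of the 7 genes called changed by more than 1.5 times in these settings. For GFPon against GFPoff cells of NT3-/-Bax-/- mice (6 called), the methods' t-test called 2 at the study's thresholds and 0 after adjustment. After adjustment the methods' t-test also called 0 in mlcNT3, Bax-/- and wild-type mice (3, 2 and 2 called by limma) and 0 for NT3 loss in GFPon and in GFPoff cells (4 called in each), but among all probe sets it called at most 1 in any comparison of 2 against 2 arrays, so that these counts were fixed by the design. At the study's thresholds it called 0 in Bax-/- mice, 1 and 0 for NT3 loss in GFPon and GFPoff cells, 1 for mlcNT3 against wild-type GFPon cells (0 called), 2 for L1 GFPon against GFPoff cells (4 called, and 2 after adjustment), 1 for L5 against L1 GFPon cells (0 called) and 0 for adult L5 against L1 without a wheel (1 called, and 0 after adjustment). Limma at those thresholds called 1 for mlcNT3 against wild-type GFPoff cells, 1 for Bax-/- against wild-type GFPon cells, 2 for L1 GFPon against GFPoff cells, and 1 each for L5 against L1 in GFPon and in GFPoff cells. Fits of only the groups compared called 1 in Bax-/- and 4 in wild-type mice, 1 and 2 for NT3 loss in GFPon and GFPoff cells, 2 for its difference of differences (6 called) and 0 for adult L5 against L1 without a wheel. One fit of all arrays called 5 in mlcNT3 and 4 in wild-type mice, 1 for L5 against L1 GFPon cells and 0 for adult L5 against L1 without a wheel. Quantile normalization called 2 for NT3 loss in GFPon cells, 2 and 3 for adult L5 against L1 with and without a wheel, 1 for running at L5, and put 2 genes above in all adult arrays (0 as deposited). A pseudocount of 32 called 2 for NT3 loss in GFPon cells and 0 for adult L5 against L1 without a wheel, dim probe sets left out gave 1 for running at L5, and the mean over probe sets gave 2 for adult L5 against L1 without a wheel. The cause of these changes was not tested, beyond the fewer arrays or probe sets that some settings hold. No result reversed.

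With each array left out in turn, counts ranged over 5 to 7 in NT3-/-Bax-/-, 2 to 3 in mlcNT3, 2 to 2 in Bax-/- and 1 to 2 in wild-type mice for GFPon against GFPoff cells, 1 to 3 and 2 to 4 for NT3 loss in GFPon and GFPoff cells, 3 to 7 for its difference of differences, 4 to 4 at L5 and 3 to 4 at L1 for GFPon against GFPoff cells, 0 to 1 for adult L5 against L1 with and without a wheel, 0 to 1 for running at L1, and 0 to 0 for the other comparisons. Leaving out both NT3-/-Bax-/- GFPoff arrays, chosen after seeing the data, gave 4 for NT3 loss in GFPon cells and 4, 2 and 2 for mlcNT3, Bax-/- and wild-type mice. These comparisons do not hold the arrays left out, so only the estimate of spread changed.

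Replicate numbers were not used as pairs in the main fits, and the labels name no shared litter or day. Correlations of same-numbered samples ranged over -0.241 to 0.283. For L5 GFPon and GFPoff cells they were 0.0849 to 0.203, above those of other pairs (-0.141 to 0.0436). Between GFPon and GFPoff cells of the genotypes they were 0.00768 to 0.283, and at L1 -0.0700 to 0.00623. Same-numbered sorted samples may therefore share a preparation, which the main fits ignore. A replicate block changed no count of members by over 1.5 times. Over all probe sets it moved L5 against L1 GFPon cells to 111 calls, against 179 without the block, and the interaction of surplus NT3 and population to 0, against 19. With 2 or 3 arrays a group, differences of well over the printed SE can miss the threshold, as 1.23 ± 0.52 for *Fabp7* and -0.85 ± 0.29 for *Mbp* did.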
